A study of Mus musculus with 6 samples.

Results

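Cadherins, non-clustered protocadherins and catenins are the calcium-dependent adhesion molecules of nerve cells and the proteins that tie them to the cytoskeleton. They were followed here in motor neurons of the mouse spinal cord after nerve injury. The members were all rows of the count table whose symbol is *Cdh* or *Pcdh* followed by a number (with *Pcdh11x*), or 1 of the catenin symbols *Ctnna1*, *Ctnna2*, *Ctnna3*, *Ctnnb1*, *Ctnnd1* and *Ctnnd2*. This gave 41 of the 53858 genes of the table, 23 cadherins, 12 protocadherins and 6 catenins, and clustered protocadherins were not among them.

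All libraries came from wild-type mice with a crushed sciatic nerve, sampled on day 6. The carbocyanine dye DiO, injected at a proximal site of the nerve on the day of surgery, filled injured motor neurons, and DiI, injected farther down on day 2, marked those whose axons had already grown there. Each library was a pool of 10 to 15 picked fluorescent cells. There were 3 pools with DiO but not DiI (DiO-only) and 3 with both dyes (double-labelled), so that every pool carried the injury and DiO, and the dye at the distal site set the groups apart. The age, sex and strain of the mice are not given in the labels, which also do not say that pools came from different animals, so that p-values measure the spread between these pools, which may be technical. In pools, fewer cells of a type and less RNA per cell cannot be told apart.

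Classical cadherins bind like cadherins on the neighbouring cell. Their cytoplasmic tail holds delta-catenins and beta-catenin, beta-catenin holds alpha-catenin, and alpha-catenin reaches the actin filaments. Beta-catenin also works in the nucleus as the effector of Wnt signals. Non-clustered protocadherins have other tails, bind weakly and act on actin and on synapses by other routes. In the embryonic spinal cord, combinations of type II cadherins, together with catenins, are known to sort motor neurons into the pools that serve single muscles.

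The libraries held 2997714 to 6563403 counts, and the members took 0.0904 to 0.131% of them. More genes had a count in DiO-only pools (17229 to 22118) than in double-labelled pools (15657 to 16467), and still did so after thinning to the smallest library (16859 to 20998 and 15236 to 16467). The motor neuron markers *Chat* and *Isl1* were present in every pool, at 59.6 to 142 and at 16.5 to 35.7 CPM (counts per 1000000 counts, scaled with TMM factors, as are all CPM values). *Mnx1*, on the same list, stood at 0.33 to 10.9 CPM. Of 10 tested motor neuron markers 5 were higher and 5 lower in double-labelled pools. *Calca* was lower, at 3818 to 14613 CPM in DiO-only and 2061 to 3744 CPM in double-labelled pools (edgeR adjusted p = 0.618). Summed oligodendrocyte markers stood at 288 to 592 CPM in DiO-only and at 1461 to 4942 CPM in double-labelled pools. Summed astrocyte markers stood at 868 to 1284 and at 1068 to 2334 CPM. Of 11 tested oligodendrocyte and 10 tested astrocyte markers, 11 and 8 were higher in double-labelled pools, 8 and 6 of them at an unadjusted p under 0.05 (edgeR). No marker on these lists was at 0 in all pools. The part of glial RNA in the values below was not tested.

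Most of the family was detected in the pools. Of the 41 members, 29 had enough counts for the test, 6 had 10 counts or more but failed the filter on low counts, and 6 had fewer than 10 counts in all and are taken as not expressed. *Cdh1*, which encodes the E-cadherin of epithelia, *Cdh3*, the kidney cadherin gene *Cdh16* and *Cdh26* had 0 counts in every pool. Here 3 counts, the limit that a count of 0 allows, correspond to 0.402 to 1.10 CPM in a library (counting error only). *Pcdh8* had 9 counts and *Pcdh12*, of endothelial cells, had 8. The number of members with at least 1 count was 34, 30 and 35 in DiO-only pools 1, 2 and 3, and 26, 33 and 27 in double-labelled pools 1, 2 and 3. Thinned to the smallest library, these numbers were 33, 29 and 35 against 26, 33 and 27. The groups thus overlapped in how many members were seen, while over all genes they did not.

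Levels of different genes were compared per kilobase of annotated exon (CPM per kb, mean of 6 pools ± SD). *Pcdh9*, a delta-1 protocadherin, was highest at 17.7 ± 4.62 CPM per kb, followed by beta-catenin (*Ctnnb1*) at 17.2 ± 5.12 and the neuronal alpha-catenin gene *Ctnna2* at 15.1 ± 4.81. Then came the type II cadherin genes *Cdh6* (12.7 ± 7.47) and *Cdh22* (11.9 ± 4.63), the protocadherin genes *Pcdh7* (11.1 ± 3.34) and *Pcdh17* (9.38 ± 3.51), and N-cadherin, *Cdh2* (7.27 ± 1.12). Neighbours in this order differed by less than the larger of their SDs. These 8 genes stood above the median of tested genes, 4.61 CPM per kb, and the other 21 tested members below it. *Cdh20* came next at 4.31 ± 1.64 CPM per kb.

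**Figure D1:**
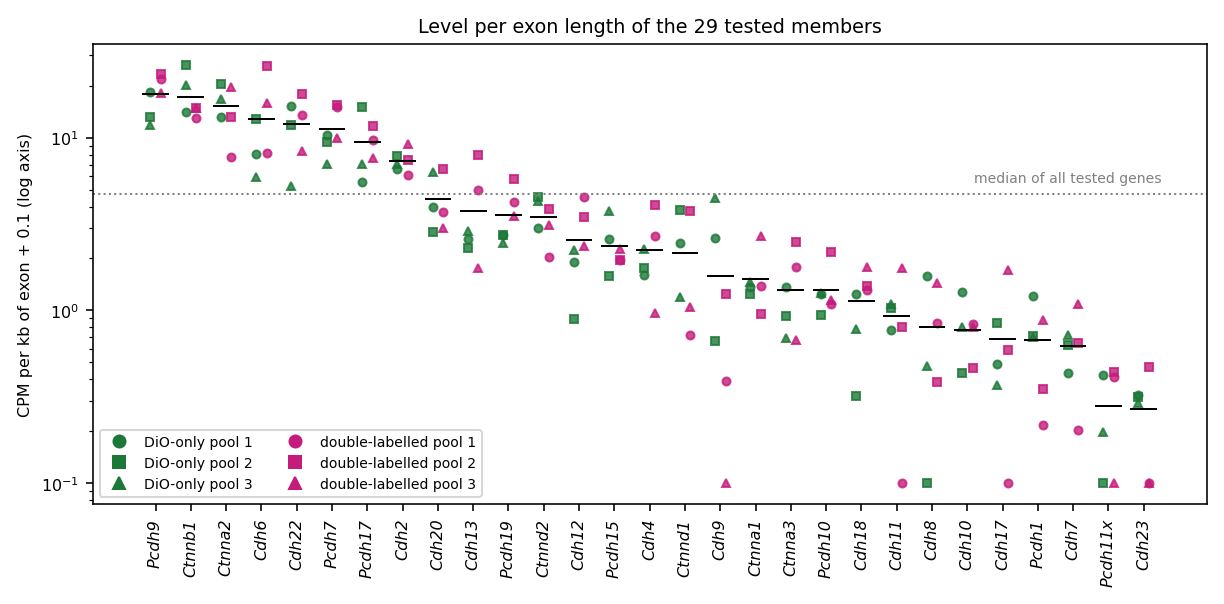
CPM per kb of exon plus 0.1 (log axis) for the 29 tested members, ordered by their mean (black bars), with DiO-only pools in green and double-labelled pools in magenta. *Pcdh9*, *Ctnnb1* and *Ctnna2* lead at 17.7, 17.2 and 15.1 CPM per kb, 8 genes stand above the dotted median of all tested genes, and points at the lower edge are counts of 0.

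Whether early distal arrival of the axon goes with other levels of these adhesion genes was asked by comparing double-labelled with DiO-only pools. No member passed the test. Of 29 tested members, 0 had an edgeR adjusted p under 0.05 (percent of all 12954 tested genes called: 0), and 0 had an unadjusted p under 0.05, where 3.18% of all tested genes were higher and 2.63% lower at that limit. The smallest p was 0.0596, for *Pcdh19*, and adjusted p ran from 0.871 to 0.999. In other fits 0 members were called as well: DESeq2, which called 76 of the same 12954 genes, limma voom, which called 0, and edgeR with no filter on low counts, which called 79 genes. These fits found 0 of 29, 3 of 29 and 5 of 37 tested members at an unadjusted p under 0.05. Among all their genes 935 of 12954, 984 of 12954 and 1468 of 28513 reached that limit.

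Fold changes lay above 0 more often than below it. Of 29 members 19 had a log2 fold change above 0 and 10 below it, with a median of 0.30, against 51.3% above 0 and a median of 0.02 over all tested genes. The groups did not overlap for 3 tested members, *Pcdh19*, *Cdh12* and *Cdh18*, with all double-labelled values on the upper side, where 5.86% of all tested genes were of that kind. For 0 tested members the groups were apart in the other direction, against 7.07% of all tested genes. The 95% interval of the log2 fold change held 0 for 29 of 29 members. It excluded a 2-fold difference in both directions for 2 members alone, *Cdh2* and *Pcdh17*, so that for the other 27 a 2-fold difference up or down lay within the interval.

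**Figure D2:**
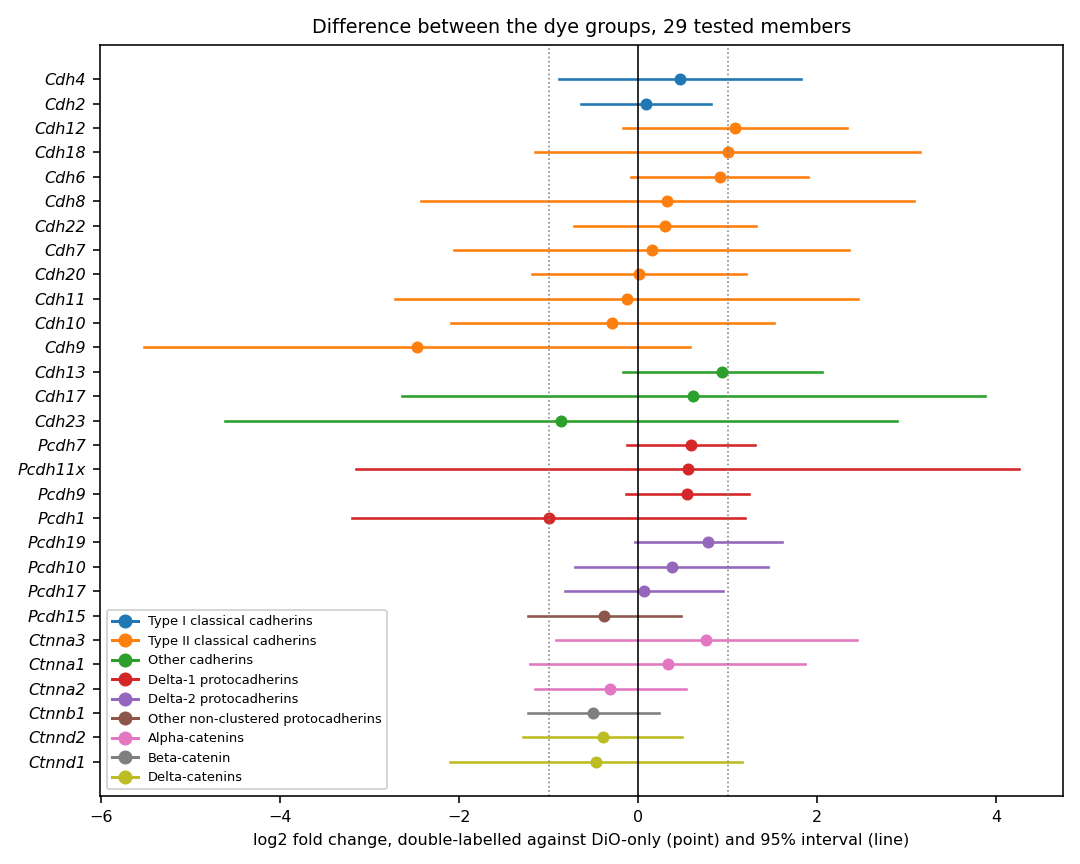
Log2 fold change of double-labelled against DiO-only pools (points) with 95% intervals (lines) for the 29 tested members, coloured by class, with dotted lines at a 2-fold difference. All 29 intervals cross 0, and the intervals of *Cdh2* (-0.64 to 0.82) and *Pcdh17* (-0.82 to 0.95) stay between the dotted lines.

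That median depended on double-labelled pools 2 and 3. Double-labelled pool 2 had the highest level of 12 of the 29 members (41.4%), against 14.2% of all tested genes, and had the smallest total count. The median deviation of the members from their DiO-only mean (log2 CPM) was 0.67 in that pool and -0.06 and 0.06 in double-labelled pools 1 and 3. It was -0.04 to 0.09 in DiO-only pools, which set that mean and so are drawn towards 0. Over all tested genes the same median lay between -0.05 and 0.04 in every pool. Without double-labelled pool 2 the median log2 fold change of the members was -0.0013, with 14 of 29 above 0. Without double-labelled pool 3 it was 0.05 and 14 of 28 were above 0. With limma voom the members' median was 0.10 and with the replicate block 0.07, where the medians of all tested genes were -0.09 and -0.07. Summed over all 41 members, the pools stood at 952, 1132 and 938 CPM (DiO-only) and at 1013, 1441 and 1071 CPM (double-labelled), which overlap. Among the double-labelled pools, pool 2 had the lowest oligodendrocyte sum (1461 CPM against 2951 and 4942) and the lowest astrocyte sum (1068 against 2334 and 1446).

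**Figure D3:**
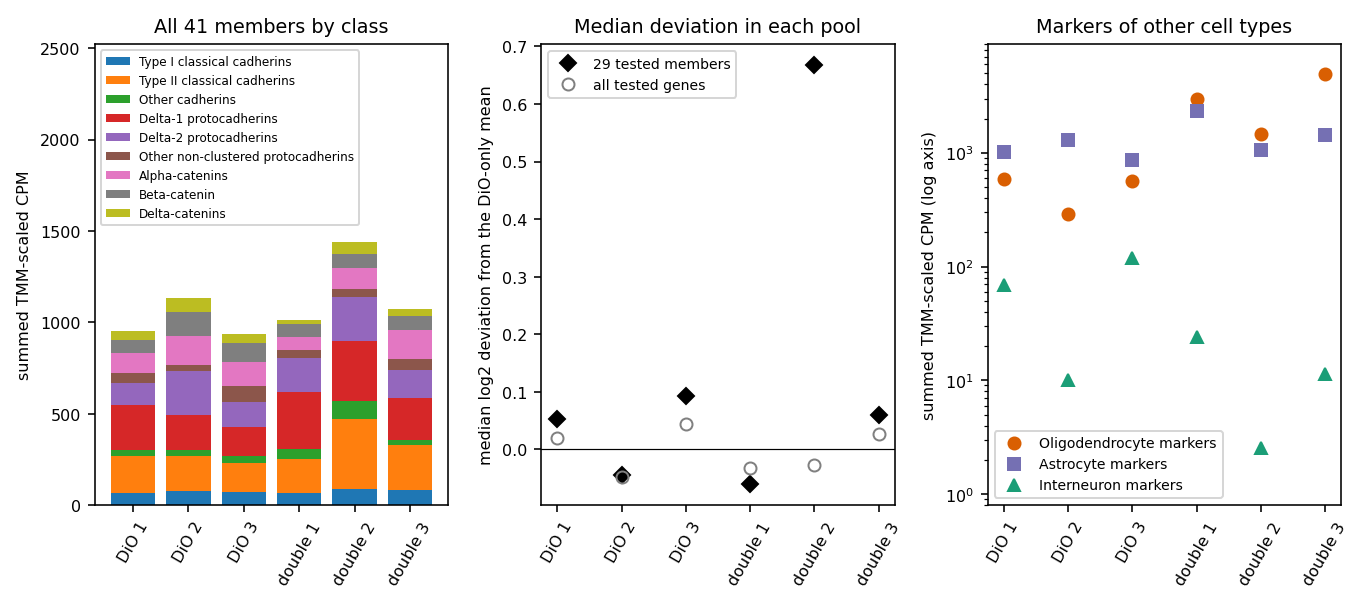
Left, summed CPM of the 41 members in each pool, stacked by class. Middle, median log2 deviation from the DiO-only mean for the tested members (diamonds) and all tested genes (circles), where double-labelled pool 2 stands at 0.67. Right, summed CPM of marker lists (log axis), with oligodendrocyte markers at 288 to 592 in DiO-only and 1461 to 4942 in double-labelled pools.

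Among type I cadherins N-cadherin was the main gene, at 48.3 to 74.0 CPM over all pools. *Cdh2* encodes N-cadherin, the general adhesion molecule of neurons. It stood at 52.1, 62.5 and 56.0 CPM in DiO-only pools 1, 2 and 3 and at 48.3, 58.9 and 74.0 CPM in double-labelled pools 1, 2 and 3. The groups overlapped, with a log2 fold change of 0.09 ± 0.33 (SE; 95% interval -0.64 to 0.82; edgeR adjusted p = 0.987), and -0.0948 without double-labelled pool 3. *Cdh4*, of R-cadherin, a close relative found in the retina and brain, stood at 10.9 to 15.8 CPM in DiO-only pools and at 6.30 to 28.9 CPM in double-labelled pools. Per kb, *Cdh2* exceeded *Cdh4* in every pool, by a ratio of 1.83 to 10.6. Muscle cadherin, *Cdh15*, had 12 counts in all and was not tested, nor was the type II gene *Cdh24* with 13.

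Type II cadherins, the class known for sorting motor neurons, were led by *Cdh6* and *Cdh22* in mean level per kb. Together these 2 genes made up 38.9% of the summed type II level per kb in DiO-only pool 3 and 63.4 to 79.7% in the other 5 pools. In DiO-only pool 3 *Cdh20* was higher, at 21.9% against 20.7% for *Cdh6* and 18.2% for *Cdh22*. Of 13 members of the class 10 were tested, 7 with a log2 fold change above 0, and the class sums overlapped at 203, 194 and 159 CPM against 186, 382 and 249 CPM.

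*Cdh6* (mm10 chromosome 15, 13028701 to 13173675, minus strand) encodes K-cadherin, which marks subsets of motor neurons in the embryo. It stood at 71.9, 115 and 52.9 CPM in DiO-only pools and at 72.7, 235 and 142 CPM in double-labelled pools. Double-labelled pool 1 lay among the DiO-only values, and pools 2 and 3 lay above them. The log2 fold change was 0.91 ± 0.45 (SE; interval -0.07 to 1.90; edgeR adjusted p = 0.872), and 0.41 without double-labelled pool 2. It reached an unadjusted p under 0.05 with total-count scaling, with no filter, with limma voom, with the replicate block, without DiO-only pool 2 and without double-labelled pool 1, and the adjusted p did not go below 0.483 in any of these.

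*Cdh22* (chromosome 2, 165111507 to 165234853, minus strand) encodes a brain cadherin. Its values were 56.0, 43.4 and 19.1 CPM in DiO-only pools and 49.7, 66.2 and 30.7 CPM in double-labelled pools, with overlap and a log2 fold change of 0.30 ± 0.47 (SE; edgeR adjusted p = 0.980). Pools of both groups differed more than 2-fold among themselves for this gene. Its log2 fold change was -0.0425 without DiO-only pool 3 and -0.0013 without double-labelled pool 2.

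*Cdh12* (chromosome 15, 20449265 to 21589533, plus strand), of a neural cadherin, stood at 11.4, 5.01 and 13.4 CPM in DiO-only pools and at 28.2, 21.2 and 14.3 CPM in double-labelled pools. Every double-labelled pool lay above every DiO-only pool, the closest values being 14.3 and 13.4 CPM. The log2 fold change was 1.08 ± 0.57 (SE; interval -0.17 to 2.34; edgeR adjusted p = 0.885). *Cdh18*, of the same class and also on chromosome 15, stood at 5.25, 1.00 and 3.09 CPM against 5.55, 5.86 and 7.64 CPM. Here too the ranges were apart, with a log2 fold change of 1.00 ± 0.98 (SE; edgeR adjusted p = 0.970).

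*Cdh20*, known as a motor neuron cadherin in the embryo, stood at 15.5, 11.0 and 24.9 CPM in DiO-only pools and at 14.6, 26.0 and 11.7 CPM in double-labelled pools. The ranges were nearly the same, with a log2 fold change of 0.01 ± 0.55 (SE) whose sign turned with total-count scaling, with no filter and with the replicate block. It was -0.07 without DiO-only pool 1, -0.21 without DiO-only pool 2 and -0.40 without double-labelled pool 2. *Cdh9*, of a cadherin of synapses, had the lowest log2 fold change of all members, -2.47 ± 1.39 (SE; interval -5.53 to 0.58; edgeR adjusted p = 0.899). Its level was 8.90, 2.00 and 15.5 CPM in DiO-only pools and 1.03, 4.03 and 0 CPM in double-labelled pools, so that DiO-only pools 1 and 3 were high and pool 2 lay among the double-labelled pools. With each library left out in turn the log2 fold change ran from -4.15 (without double-labelled pool 2; edgeR adjusted p = 0.595) to -1.76 (without DiO-only pool 3). DiO-only pools 1 and 3 also had the highest summed interneuron markers, 69.0 and 119 CPM against 2.56 to 23.8 CPM in the other 4. Of the 7 interneuron markers 1 had enough counts for the test. Most of the sum in DiO-only pools 1 and 3 came from 1 gene, a different one in each. *Slc6a5*, of glycinergic neurons, stood at 92.4 CPM in DiO-only pool 3, and *Slc17a6*, of excitatory interneurons, at 62.6 CPM in DiO-only pool 1. The part of such cells in the *Cdh9* values was not tested. *Cdh7*, *Cdh8*, *Cdh10* and *Cdh11* stood between 0 and 14.7 CPM with overlapping groups.

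Other cadherins were led by *Cdh13*, of T-cadherin, which is held to the membrane by a lipid anchor and has no catenin-binding tail. It stood at 27.9, 24.7 and 31.4 CPM in DiO-only pools, a narrow range, and at 55.3, 88.6 and 18.8 CPM in double-labelled pools. Double-labelled pools 1 and 2 lay above all DiO-only pools and pool 3 below them. The log2 fold change was 0.94 ± 0.51 (SE; interval -0.17 to 2.06; edgeR adjusted p = 0.885). Without double-labelled pool 3 it was 1.35 with an edgeR adjusted p of 0.392, and without double-labelled pool 2 it was 0.38. That adjusted p was the smallest in any fit among the members tested in the main fit. The tip-link cadherin gene *Cdh23*, known from hair cells of the inner ear, had 3.79, 3.67 and 3.26 CPM in DiO-only pools but 0, 6.22 and 0 CPM in double-labelled pools. *Cdh17*, a cadherin gene of liver and intestine, stood at 0 to 7.24 CPM over all pools.

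Delta-1 protocadherins summed to 247, 194 and 160.0 CPM in DiO-only and 312, 330 and 233 CPM in double-labelled pools. *Pcdh7* and *Pcdh9* gave most of these counts, and both had the higher mean in double-labelled pools. *Pcdh9* (chromosome 14, 93013410 to 93890679, minus strand), which glia of the oligodendrocyte lineage express as well, stood at 124, 89.2 and 79.9 CPM against 148, 159 and 122 CPM. DiO-only pool 1 lay just above double-labelled pool 3, and the other DiO-only pools lay below all double-labelled pools. The log2 fold change was 0.55 ± 0.31 (SE; interval -0.14 to 1.24; edgeR adjusted p = 0.899). Summed oligodendrocyte markers were also higher in double-labelled pools, at 2951, 1461 and 4942 CPM in pools 1, 2 and 3. Within that group *Pcdh9* ran in the opposite order, highest in pool 2 and lowest in pool 3. The part of oligodendrocyte RNA in the *Pcdh9* values was not tested. *Pcdh7* (chromosome 5, 57717967 to 58133230, plus strand) stood at 109, 99.6 and 73.4 CPM against 158, 164 and 104.5 CPM. Again DiO-only pool 1 lay above double-labelled pool 3, with a log2 fold change of 0.59 ± 0.33 (SE; interval -0.12 to 1.31; edgeR adjusted p = 0.892). It shares 2235 exonic bases with a transcript on the other strand that had 162 counts in all, against 3471 for *Pcdh7*. *Pcdh1* had the lower mean in double-labelled pools, with 9.77, 5.35 and 5.33 CPM against 1.03, 2.20 and 6.83 CPM and an edgeR adjusted p of 0.970.

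Delta-2 protocadherins included the member of smallest p. *Pcdh19* (chromosome X, 133582860 to 133688987, minus strand) encodes a protocadherin that works together with N-cadherin and is known as an epilepsy gene. It stood at 27.6, 27.7 and 24.6 CPM in DiO-only pools and at 43.2, 59.3 and 35.6 CPM in the double-labelled ones. Every double-labelled pool lay above every DiO-only pool, and the DiO-only pools lay close together. The log2 fold change was 0.79 ± 0.38 (SE; interval -0.04 to 1.61; edgeR adjusted p = 0.871), and it lay between 0.54 and 0.93 when each library was left out in turn.

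*Pcdh17*, of a protocadherin of presynaptic terminals, was uneven, at 71.0, 196 and 90.6 CPM against 126, 150.0 and 97.8 CPM. DiO-only pool 2 was the highest of all 6 pools. Its log2 fold change of 0.07 ± 0.40 (SE; edgeR adjusted p = 0.992) turned negative without DiO-only pool 1 (-0.21), DiO-only pool 3 (-0.11) or double-labelled pool 2 (-0.12). *Pcdh10* stood at 13.4 to 18.4 CPM in DiO-only pools and at 15.6 to 32.9 CPM in double-labelled pools, and *Pcdh11x*, of the delta-1 class, at 0 to 4.52 and at 0 to 4.76 CPM. *Pcdh15*, the partner of *Cdh23* in the tip link and a gene of oligodendrocyte precursors, stood at 58.9, 35.4 and 87.6 CPM against 44.2, 44.3 and 51.7 CPM, and the double-labelled values lay inside the DiO-only range.

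Several members were seen in 1 or 2 pools. *Pcdh20* had 62 counts in double-labelled pool 3 (8.31 CPM), 1 in double-labelled pool 2 and 0 in the other 4. *Cdh19*, of a cadherin of Schwann and other neural-crest-derived cells, had 14 counts, all in double-labelled pool 2. *Cdh5*, which encodes the VE-cadherin of endothelium, had 8 and 18 counts in DiO-only pools 1 and 3 and 0 elsewhere, and *Pcdh18* had 6 and 15 counts in the same pools and 0 elsewhere. Summed endothelial and pericyte markers overlapped between the groups, at 1.90, 11.4 and 34.9 CPM in DiO-only and 10.1, 5.86 and 11.1 CPM in double-labelled pools. Of their 2 tested members 2 had a log2 fold change above 0. These 4 members failed the filter on low counts. With no filter on low counts *Pcdh20*, *Cdh19* and *Cdh5* had an unadjusted p under 0.05 in edgeR and were not called. In pools of so few cells, counts amplified by PCR without molecular identifiers are not independent molecules.

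Catenins, the intracellular partners, did not pass the test, and beta-catenin and both delta-catenins had the lower mean in double-labelled pools. *Ctnnb1* (chromosome 9, 120929216 to 120960507, plus strand) stood at 72.4, 136 and 105 CPM in DiO-only pools and at 67.2, 76.9 and 76.9 CPM in double-labelled pools. DiO-only pools 2 and 3 were high, and pool 1 lay among the double-labelled pools. The log2 fold change was -0.50 ± 0.33 (SE; interval -1.23 to 0.23; edgeR adjusted p = 0.942). It was below 0 in each of the 14 alternative fits, as were those of *Ctnna2*, *Ctnnd1* and *Ctnnd2*. These fits reuse the same libraries and are not independent. *Ctnnb1* shares 759 exonic bases with *Ulk4* on the opposite strand, which had 1973 counts against 2625 for *Ctnnb1*, and these reads cannot be told apart without strand.

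**Figure D4:**
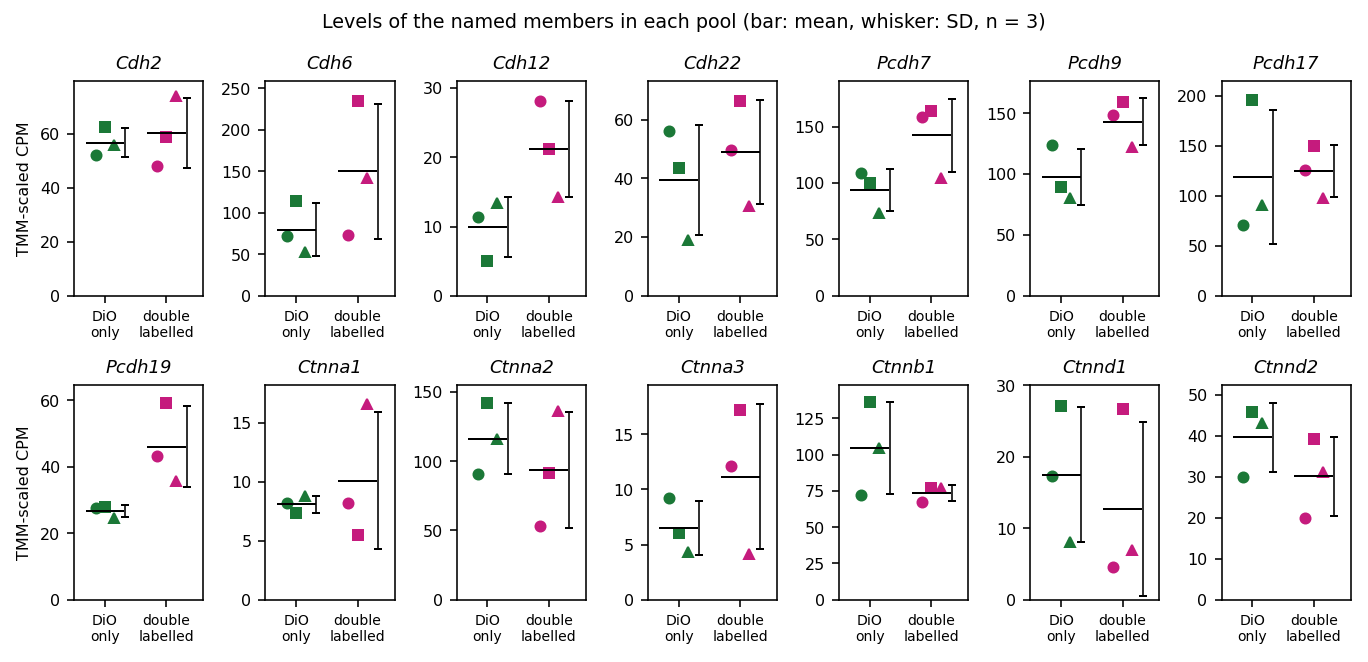
TMM-scaled CPM of 14 members in each pool (circle, square and triangle for pools 1, 2 and 3), with the mean as a bar and the SD as a whisker (n = 3). *Pcdh19* and *Cdh12* are the 2 genes shown with groups apart, and double-labelled pool 2 is the highest pool for *Cdh6* (235 CPM).

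Among alpha-catenins the neuronal form prevailed. *Ctnna2* stood at 91.0, 142 and 116 CPM in DiO-only pools and at 52.8, 91.5 and 137 CPM in double-labelled pools, and *Ctnna1*, the form of epithelia and most other cells, at 8.17, 7.35 and 8.76 CPM and at 8.22, 5.49 and 16.6 CPM. Per kb, *Ctnna2* exceeded *Ctnna1* by a ratio of 5.94 to 17.9 in the 6 pools, 13.5 ± 3.93 in DiO-only and 9.65 ± 5.06 in double-labelled pools (SD, n = 3). *Ctnna3*, of the heart form, stood at 4.15 to 17.2 CPM over all pools. The log2 fold changes of these genes were -0.31 ± 0.38, 0.33 ± 0.70 and 0.76 ± 0.77 (SE; edgeR adjusted p = 0.978, 0.987 and 0.970), with overlapping groups. Without double-labelled pool 3, that of *Ctnna1* was -0.24. *Ctnna1* shares 95 exonic bases with *Lrrtm2* on the other strand.

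Both delta-catenins were present. The neural gene *Ctnnd2* stood at 29.9, 45.8 and 43.1 CPM in DiO-only pools and at 19.9, 39.2 and 31.2 CPM in double-labelled pools, and the groups overlapped (log2 fold change -0.40 ± 0.41, SE; edgeR adjusted p = 0.970). *Ctnnd1*, of the widely expressed form, stood at 17.4, 27.1 and 8.08 CPM and at 4.52, 26.7 and 6.97 CPM. Its pools split within both groups, pool 2 being the highest in each (log2 fold change -0.47 ± 0.74, SE; edgeR adjusted p = 0.981). That value was -1.62 without double-labelled pool 2 and -0.0057 without DiO-only pool 2. Most of its exons (4482 of 7319 bases) are shared with a predicted gene on the same strand, which had 0 counts. How reads in the shared bases were treated is not given, so the counts of *Ctnnd1* are uncertain.

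Genes that work with cadherins did not pass either. Of 20 tested junction partners 7 had a log2 fold change above 0 and 13 below it (median -0.09), of 14 processing and trafficking genes 4 and 10 (median -0.07), of 16 genes of beta-catenin turnover and transcription 7 and 9 (median -0.11), and of 10 other cadherin superfamily genes 6 and 4 (median 0.09). None of these genes had an edgeR adjusted p under 0.05, and 3 had an unadjusted p under 0.05, all higher in double-labelled pools. *Psen2*, a catalytic subunit of the gamma-secretase that cuts cadherin stubs, stood at 25.4, 15.0 and 23.5 CPM against 42.5, 57.8 and 35.2 CPM (edgeR adjusted p = 0.742). *Nectin4*, of an adhesion molecule of adherens junctions, stood at 15.6, 8.69 and 8.42 CPM against 26.3, 31.5 and 20.4 CPM (edgeR adjusted p = 0.751). Of the tested genes on these lists, the groups did not overlap for these 2, which were on the upper side (5.86% of all tested genes), and for *Iqgap1*, *Cbll1*, *Ptpn1* and *Ptprm*, on the lower side (7.07%). *Dchs1*, of a giant cadherin of planar polarity, had 34.3 CPM in double-labelled pool 3 and 1.03 to 4.93 CPM in the other 5 pools (edgeR adjusted p = 0.747).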

How the data were processed

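RNA was sequenced from 6 pools of picked motor neurons after whole-transcript amplification, per the labels' protocols. The authors deposited read counts per Ensembl gene, whole numbers without normalisation. FastQC, HISAT2 and HTSeq were used with mm10, per the submitters' processing notes. Not given in the sources used here: versions, annotation, strand setting and treatment of multi-mapping reads. The 6 single-library files and the joint table had identical counts. The labels name 3 batches without assigning libraries to them.

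Coordinates (1-based), exon unions and overlaps came from GENCODE M21 (GRCm38, also called mm10), which held 99.8% of the genes. Lengths per kb use the union of annotated exons, which understates genes with unused exons.

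Counts were analysed in R 4.3.3 with edgeR 4.0.16: filterByExpr by group (12954 genes, 99.2% of counts), TMM scaling, and the robust quasi-likelihood F-test, two-sided, with Benjamini-Hochberg adjustment over all tested genes and a threshold of 0.05. SE was the size of the log2 fold change over the root of F, and 95% intervals from the SE and the test's degrees of freedom. Alternatives were other scalings and filters, DESeq2 1.42.0, voom in limma 3.58.1, the replicate number as a block, and leaving out each library. The tests were also run on simulated counts. These held no shifts of single pools or of glial content, so they do not show how the tests behave in these data. Figures used matplotlib 3.10.9.

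The members and lists were chosen with earlier results of these data known. Values in every pool were to be given for catenins, for the 8 members highest per kb, for members with an unadjusted p under 0.05, and for members with groups apart at a mean of at least 5 CPM, and of context lists for up to 4 genes of smallest p. *Cdh4*, *Cdh9*, *Cdh13*, *Cdh17*, *Cdh18*, *Cdh20*, *Cdh23*, *Pcdh1*, *Pcdh10*, *Pcdh11x*, *Pcdh15* and the members seen in 1 or 2 pools were named after their values were seen. So were *Mnx1*, *Calca* and the marker genes named beside those members.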

Additional observations from a re-analysis of the deposited data

How the results depend on the processing

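No member was called in any of 14 alternative fits. Unadjusted p values under 0.05 were found for at most 5 members. That was 5 of 37 tested members with no filter on low counts, where 1468 of all 28513 genes reached that limit. Among the members tested in the main fit, the smallest adjusted p was 0.392 (edgeR). Over all genes edgeR called 0, against 79 with no filter on low counts, 76 with DESeq2 on the filtered genes, 75 with DESeq2 from all genes, and 23 with the replicate number as a block. The cause was not tested. Leaving out each library in turn left 0 genes called, and moved the median log2 fold change of the members between -0.0013 (without double-labelled pool 2) and 0.37. The same runs turned the sign of 11 of the 29 tested members: *Cdh2*, *Cdh4*, *Cdh7*, *Cdh8*, *Cdh10*, *Cdh11*, *Cdh20*, *Cdh22*, *Ctnna1*, *Pcdh10* and *Pcdh17*. Among these the range was -0.40 to 0.37 for *Cdh20*, -0.0948 to 0.22 for *Cdh2*, -0.06 to 0.87 for *Cdh4*, -0.0425 to 0.64 for *Cdh22*, -0.24 to 0.60 for *Ctnna1*, -0.06 to 0.56 for *Pcdh10* and -0.21 to 0.63 for *Pcdh17*. *Cdh20* also turned with total-count scaling, no filter and the replicate block, and with RLE scaling 0 members turned.

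The labels do not say that equal replicate numbers mark pairs. Deviations from the group means correlated at 0.07, 0.23 and 0.20 between same-numbered pools, and every pool correlated best with its own number. The deviations of each gene sum to 0 within a group, so these correlations depend on each other. They are a weak hint from the data and not from the design. With the block, 2 of 29 members, *Cdh6* and *Pcdh7*, had an unadjusted p under 0.05 and 0 were called. Of all 12954 tested genes, 1066 reached that limit with the block.

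Small pools and 3 libraries a group limit the precision: the interval of 27 of 29 members held a 2-fold difference, and a count of 0 does not show absence in the cells.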
